A study of Homo sapiens with 8 samples.

Results

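The genes described here are 10 genes of kynurenine and NAD metabolism, namely IDO1, KYNU, QPRT, NAPRT, NAMPT, NMNAT1, NMNAT2, NADK, NNMT and PARP1. They were chosen as a list of symbols and looked up by gene identifier among the 58735 genes of the expression tables, where all 10 were found. U2OS, a human osteosarcoma cell line, was transduced with a control shRNA (WT or control cells) or with an shRNA against WSB2 (KD cells), and each was kept without stimulus or given TNF-α over 5 h. Bulk RNA was sequenced in 2 libraries of each of the 4 groups. WSB2 is a substrate receptor of a ubiquitin ligase, and the study asks how its loss changes transcription driven by NF-κB, the factor that TNF-α activates. The labels name no clone and do not say which WSB2 shRNA these cells carried, and nothing in them says that replicates came from separate cultures, so p-values measure only the spread between these libraries, which may be technical.

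NAD is the electron carrier of central metabolism and the substrate that PARPs and sirtuins consume. Cells make it from tryptophan through kynurenine (the de novo route, opened by IDO1 and continued by KYNU), from nicotinic acid, or from the nicotinamide that PARPs and sirtuins release (the salvage route). QPRT, NAPRT and NAMPT each attach a phosphoribosyl group to the pyridine ring, in the de novo, nicotinic acid and salvage routes in turn. NMNAT1 in the nucleus and NMNAT2 at the Golgi complete the dinucleotide, and NADK turns NAD into NADP. NNMT methylates nicotinamide and so removes it from salvage, and PARP1 spends NAD at DNA breaks. NAMPT, KYNU and IDO1 are known as genes that inflammatory cytokines can raise in many cell types.

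The libraries held between 15601098 and 18677023 reads. WSB2 itself stood at 27.9 ± 0.198 FPKM (fragments relative to gene length and library size, SD, n = 2) in unstimulated control cells against 8.45 ± 0.0955 in unstimulated KD cells, and at 25.1 ± 0.196 against 9.09 ± 0.128 after TNF-α, so the knockdown was seen in both KD groups. Both unstimulated KD libraries stood apart from the other 6. The GC content of their reads, weighted by gene, was 50.1% and 50.6% against 53.2% to 53.8% elsewhere, 4.10% and 4.42% of their reads fell on mitochondrial genes against 1.11% to 2.03%, and 26225 and 26397 genes had a read against 22072 to 22957. Across 16520 tested genes the KD effect without TNF-α ran with the GC content of the gene's transcripts (Spearman's rho = -0.70), which it did not do after TNF-α (rho = 0.04). Genes are not independent replicates and share the libraries, so these are descriptions. Every comparison that uses the unstimulated KD group rests on those 2 libraries, and for members called there values corrected for GC content and gene length are given beside the deposited ones. The osteoblast and mesenchymal markers summed to 575 and 592 FPKM in the unstimulated KD libraries and to between 731 and 816 in the others, and the part of this difference in the results below was not tested. Of these markers, 3 of the 9 (SP7, BGLAP and COL1A2) were under 1 FPKM in every library. COL1A1, SPARC and VIM made up most of the sum. RUNX2 went the other way, at 2.94 and 2.88 FPKM in unstimulated KD cells against 1.66 and 2.02 in unstimulated control cells. All 5 leukocyte, all 3 epithelial and all 3 endothelial markers were under 1 FPKM in every library.

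GC content differed widely among the members. In the transcripts annotated for each gene it was 37.6% in KYNU, at the 3.18th percentile of the tested genes, 39.8% in NAMPT (9.29th percentile) and 67.5% in NAPRT (99.0th percentile), around a median of 49.4%. NMNAT1 (46.8%), NMNAT2 (49.0%), PARP1 (50.2%) and NNMT (52.1%) lay near that median, and QPRT (57.1%) and NADK (57.9%) above it. KYNU and NAMPT share a low GC content in their transcripts but not in their start regions, which are printed here to show the contrast between them. They are the RefSeq windows of GRCh38.p14 from 250 bases before to 50 bases after the start, written 5′ to 3′ on the strand of the gene, with each CG dinucleotide in capitals. The KYNU window is chr2:142877414-142877713 on the plus strand and the NAMPT window is chr7:106284934-106285233 on the minus strand.
KYNU: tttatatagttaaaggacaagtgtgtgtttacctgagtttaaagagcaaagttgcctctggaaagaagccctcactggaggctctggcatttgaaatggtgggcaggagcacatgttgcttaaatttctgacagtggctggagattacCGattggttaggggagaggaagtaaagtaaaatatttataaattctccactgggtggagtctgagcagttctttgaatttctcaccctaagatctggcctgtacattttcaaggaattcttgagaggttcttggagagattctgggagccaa
NAMPT: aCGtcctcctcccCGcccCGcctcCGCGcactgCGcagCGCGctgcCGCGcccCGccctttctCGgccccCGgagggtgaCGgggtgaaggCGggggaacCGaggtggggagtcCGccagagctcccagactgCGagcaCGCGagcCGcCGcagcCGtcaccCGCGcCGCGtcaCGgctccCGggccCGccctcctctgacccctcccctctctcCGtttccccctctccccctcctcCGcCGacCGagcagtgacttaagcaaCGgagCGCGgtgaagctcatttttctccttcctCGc

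The KYNU window held 1 CG dinucleotide and 42.3% G and C, and the NAMPT window 38 CG dinucleotides and 73.0%, against medians of 14 and 58.7% over 35116 such windows. Neither window matched the κB consensus motif (searched on both strands) or the AP-1 motif TGANTCA, which reads the same on both strands. Windows were listed for 7 members with 11 starts in all. The κB motif matched 2 of these 11, in NMNAT1 and PARP1, and 5.91% of all windows, and the AP-1 motif matched none of the 11 and 7.71% of all windows. A match or its absence concerns these letters in this window only.

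The members spanned about the whole range of expression, and their order was much the same in the 4 groups. NNMT was the most abundant in every library, PARP1 the next, and KYNU and IDO1 the lowest. FPKM is scaled to the merged length of all exons annotated for a gene, 17600 bases for KYNU against a median of 4531.5 among tested genes. The transcripts expressed here may be shorter, so levels set side by side across genes are approximate. The plot of the members by library shows each value.

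**Figure D1:**
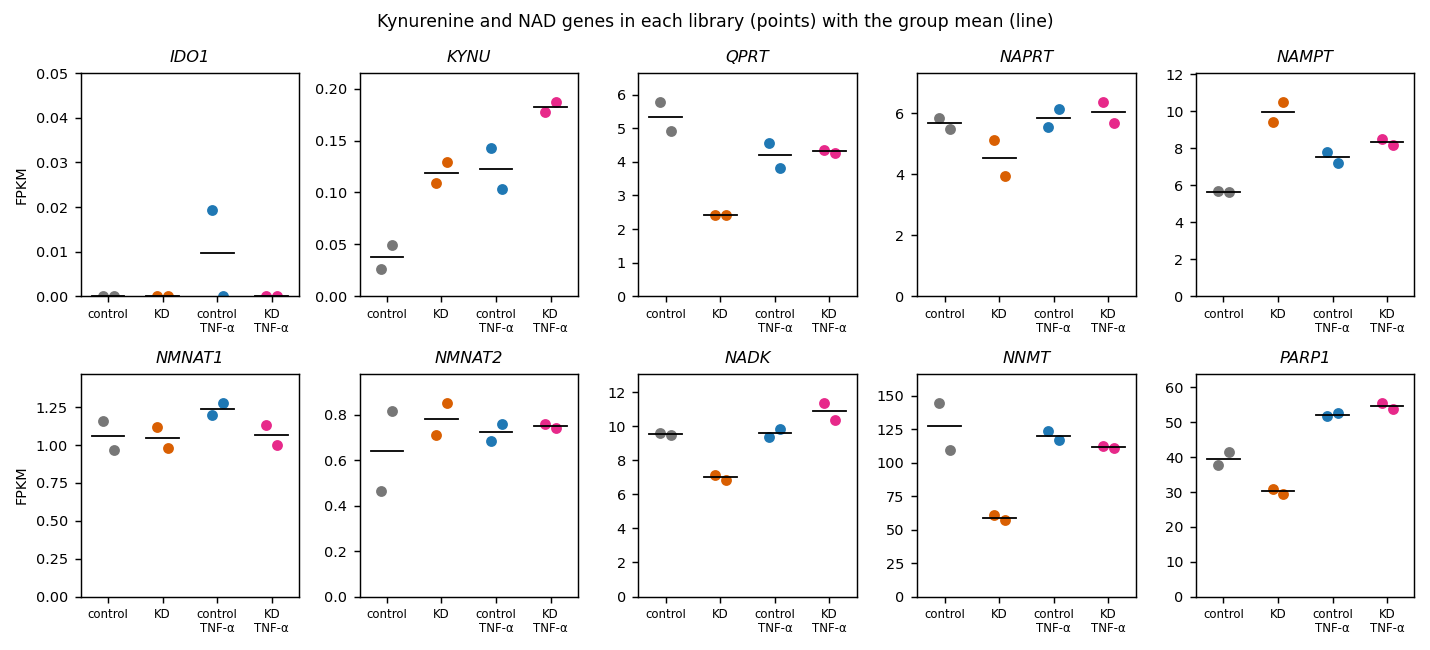
FPKM of the 10 members (one panel each, axis from 0) in the 4 groups of 2 libraries, with points for libraries and a line for the group mean. In unstimulated KD cells QPRT, NADK, NNMT and PARP1 sit below the other 6 libraries and NAMPT above them. With TNF-α the control and KD libraries of these members lie closer together than without it, and the KYNU libraries of KD cells lie above those of control cells.

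Of the de novo route, IDO1 (ENSG00000131203), the enzyme that opens the ring of tryptophan, was at the limit of detection. A single read fell on it in all 8 libraries together, in replicate 1 of the control cells with TNF-α (0.0193 FPKM), and the other 7 libraries held none. A count of 0 allows up to 3 reads, which is between 0.0464 and 0.0614 FPKM by library, for counting error only. IDO1 was therefore not tested, and a change of it that stayed under these limits could not be detected at this depth.

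KYNU (ENSG00000115919, chromosome 2, 142877498 to 143055832, plus strand), which cleaves kynurenine and 3-hydroxykynurenine, was low throughout. It stood at 0.0265 and 0.0492 FPKM in unstimulated control cells, 0.109 and 0.130 in unstimulated KD cells, 0.143 and 0.103 in control cells with TNF-α, and 0.178 and 0.187 in KD cells with TNF-α. These values rest on 7 and 15, 38 and 44, 40 and 28, and 54 and 52 reads. Summed over the libraries of a group, they make 22 reads (95% exact Poisson interval 13.8 to 33.3) in unstimulated control cells and 82 (65.2 to 102), 68 (52.8 to 86.2) and 106 (86.8 to 128) in the other groups. The unstimulated control libraries lay below the other 6 and the KD libraries with TNF-α above them, and the remaining groups overlapped.

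QPRT (ENSG00000103485, chromosome 16, 29679008 to 29698699, plus strand), which closes the de novo route from quinolinate, stood at 5.77 and 4.90 FPKM in unstimulated control cells and 2.42 and 2.40 in unstimulated KD cells. With TNF-α it stood at 4.56 and 3.83 in control and 4.35 and 4.27 in KD cells. The unstimulated KD libraries were the lowest, and with TNF-α the control and KD libraries overlapped. NAPRT (ENSG00000147813), the entry enzyme for nicotinic acid, varied little, with 5.85 and 5.48 FPKM in unstimulated control cells and 5.11 and 3.94 in KD cells, then 5.55 and 6.15 in control and 6.35 and 5.69 in KD cells with TNF-α. NAPRT overlaps 2 genes annotated on the opposite strand, AC067930.5 with 454 reads and AC067930.6 with 177 reads in all, against 2287 for NAPRT. The strand of counting is not given in the sources used here, so reads of NAPRT and these genes may not have been told apart.

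NAMPT (ENSG00000105835, chromosome 7, 106248285 to 106286326, minus strand), the rate-limiting enzyme of nicotinamide salvage, stood at 5.68 and 5.63 FPKM in unstimulated control cells and at 9.38 and 10.5 in unstimulated KD cells. With TNF-α its control libraries stood at 7.81 and 7.17, against 8.51 and 8.16 in KD cells. The 4 groups did not overlap for NAMPT, with unstimulated control cells the lowest and unstimulated KD cells the highest. Its near-identical processed pseudogene NAMPTP1 took 696 reads in all against 9788 for NAMPT, and how reads were shared between them is uncertain. NAMPTP1 had 44 and 66 reads in unstimulated control cells, 119 and 93 in unstimulated KD cells, and with TNF-α 86 and 92 in control cells against 101 and 95 in KD cells.

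The NMNAT enzymes were low and flat. NMNAT1 (ENSG00000173614, chromosome 1, 9943428 to 9985501, plus strand) lay between 0.965 and 1.28 FPKM in the 8 libraries, and NMNAT2 (ENSG00000157064, chromosome 1, 183248237 to 183418602, minus strand) between 0.466 and 0.853. Both of those extremes of NMNAT1 and the lowest value of NMNAT2 came from control libraries. The NMNAT2 reads were 50 and 101 in unstimulated control cells, so its replicates there differed more than any group means did.

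NADK (ENSG00000008130, chromosome 1, 1751232 to 1780457, minus strand), the cytosolic NAD kinase, stood at 9.62 and 9.50 FPKM in unstimulated control cells and 7.14 and 6.85 in unstimulated KD cells. With TNF-α it stood at 9.34 and 9.85 in control and 11.4 and 10.4 in KD cells. The unstimulated KD libraries were the lowest and the KD libraries with TNF-α the highest.

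NNMT (ENSG00000166741, chromosome 11, 114257787 to 114313285, plus strand) stood at 145 and 109 FPKM in unstimulated control cells and 60.6 and 56.8 in unstimulated KD cells. With TNF-α it stood at 123 and 117 in control and 113 and 111 in KD cells. Its unstimulated control replicates differed by more than the group means after TNF-α did, and only the unstimulated KD libraries lay outside the range of the others. PARP1 (ENSG00000143799, chromosome 1, 226360691 to 226408079, minus strand) stood at 37.6 and 41.5 FPKM in unstimulated control cells and 30.9 and 29.4 in unstimulated KD cells, then 51.7 and 52.7 in control and 55.7 and 54.0 in KD cells with TNF-α. All 4 TNF-α libraries were above all 4 unstimulated ones for PARP1.

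By group mean the order of the levels was NNMT and PARP1, then NADK and NAMPT, then NAPRT, QPRT, NMNAT1, NMNAT2, KYNU and IDO1, apart from the changes named here. Neighbours overlapped in their libraries only in unstimulated control cells, where NAPRT (5.66 ± 0.262 FPKM, SD, n = 2), NAMPT (5.65 ± 0.0319) and QPRT (5.34 ± 0.614) could not be ordered. In unstimulated KD cells NAMPT (9.93 ± 0.769) passed NADK (6.996 ± 0.200), and in the other 3 groups NADK was the higher of them.

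Comparison of KD and control cells after TNF-α asks whether the loss of WSB2 changed these genes during stimulation, and uses none of the libraries that stand apart other than for the shared estimate of spread. No member was called. Log2(FPKM + 1) was compared by limma, and a gene was called where its p, adjusted by Benjamini-Hochberg over all 16528 genes with enough reads, was under 0.05. Enough reads were present for 9 of the 10 members. Of those 9, 0 were called, and 0 had an unadjusted p under 0.05. In this comparison 0.115% of all tested genes were called. A voom fit of the reads recovered from the FPKM values likewise called 0 of the 9, with 0 at an unadjusted p under 0.05, where 0.315% of all genes were called.

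The intervals show what sizes of change remain possible. The log2 fold changes lay between -0.12 (NMNAT1, 95% interval -0.34 to 0.11) and 0.16 (NADK, -0.03 to 0.36). For NAMPT the difference was 0.14 (-0.07 to 0.35), for PARP1 0.07 (-0.11 to 0.25), and for NNMT -0.10 (-0.40 to 0.20). For QPRT it was 0.04 (-0.23 to 0.30), for NAPRT 0.04 (-0.26 to 0.33), and for NMNAT2 0.02 (-0.23 to 0.28). On this scale the change of a gene well under 1 FPKM is compressed, so the 0.07 of KYNU says little, and in the voom fit its difference was 0.57 ± 0.29 (SE, limma adjusted p = 0.693) with both KD libraries above both control libraries. The libraries of the groups did not overlap for NADK, NAMPT, KYNU and PARP1, all higher in KD cells, and for NNMT and NMNAT1, both lower. With 2 libraries against 2 this was common, since 23.9% of all tested genes were higher without overlap and 22.3% lower. In bulk RNA, fewer cells that express a gene and less of its RNA in each cell cannot be told apart, here and below.

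TNF-α in control cells, the response of cells with normal WSB2, was followed by a call of PARP1 alone. PARP1 rose from 39.5 ± 2.74 to 52.2 ± 0.736 FPKM (SD, n = 2), a log2 fold change of 0.39 ± 0.08 (SE, limma adjusted p = 0.0338). It was the 1 member called of 9, where 4.24% of all tested genes were called. The call did not hold without the filter on low reads, under other scalings, with only the 4 libraries compared or only the 6 outside the unstimulated KD group, or without either replicate of the unstimulated KD group or of either TNF-α group (adjusted p between 0.0535 and 0.225), while the log2 fold change stayed between 0.32 and 0.41 in those fits. Of all calls in this comparison 73.0% were higher as deposited, 60.3% with total reads and 70.7% with upper quartiles.

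NAMPT went from 5.65 ± 0.0319 to 7.49 ± 0.452 FPKM, a log2 fold change of 0.35 ± 0.09 that missed the threshold (limma adjusted p = 0.0833). NAMPTP1 had a log2 fold change of 0.48 ± 0.12 in the same fit (adjusted p = 0.0842). QPRT had -0.29 ± 0.11 (adjusted p = 0.250). KYNU had 22 reads without and 68 with TNF-α, and no library overlapped. Its difference was 0.11 ± 0.05 on the log2(FPKM + 1) scale (adjusted p = 0.273) and 1.68 ± 0.44 in the voom fit (adjusted p = 0.0523). In a voom fit with the correction for GC content and length, added after the data were seen, it was 1.53 ± 0.36 and passed the threshold (adjusted p = 0.0247), and 7.03% of all genes did so there. NADK, NAPRT, NMNAT1, NMNAT2 and NNMT had log2 fold changes between -0.07 and 0.12.

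Without TNF-α, 5 of the 9 tested members differed between KD and control cells in the deposited values, 1 up and 4 down. That is near the share of all tested genes, of which 60.1% were called, 29.8% higher and 30.2% lower. NAMPT rose by a log2 fold change of 0.71 ± 0.09 (limma adjusted p = 0.000435). NNMT fell by 1.09 ± 0.13 (adjusted p = 0.000349), QPRT fell by 0.89 ± 0.11 (0.000478), NADK fell by 0.40 ± 0.08 (0.00403) and PARP1 fell by 0.38 ± 0.08 (0.00379). Only NNMT passed the study's own thresholds, an unadjusted p under 0.05 with an absolute log2 fold change above 1, which 11.9% of all genes passed. KYNU could not reach that fold change on the log2(FPKM + 1) scale, and in the voom fit KYNU, NNMT and QPRT passed these thresholds, as did 27.7% of all genes. NAPRT had -0.28 ± 0.13 (adjusted p = 0.0894), NMNAT2 0.13 and NMNAT1 -0.01, and none of them passed. NAPRT passed with upper quartiles (-0.48, adjusted p = 0.0138) and without replicate 1 of the unstimulated KD group (-0.43, 0.0325), and NMNAT2 without replicate 2 of the unstimulated control group (0.28, 0.0363).

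These values depended on scaling. The authors divided the unstimulated KD libraries by sizes 1.21 times their totals and the other libraries by 0.925 to 1.03 times. Scaled to total reads instead, all tested genes had a median log2 fold change of 0.13, NADK had -0.15 (adjusted p = 0.160) and PARP1 -0.10 (adjusted p = 0.338), so both calls were lost. NAMPT, NNMT and QPRT kept their calls under that scaling and under upper-quartile scaling, where the median of all genes was -0.11. Of all calls 49.7% were higher as deposited, 65.3% with total reads and 37.8% with upper quartiles.

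**Figure D2:**
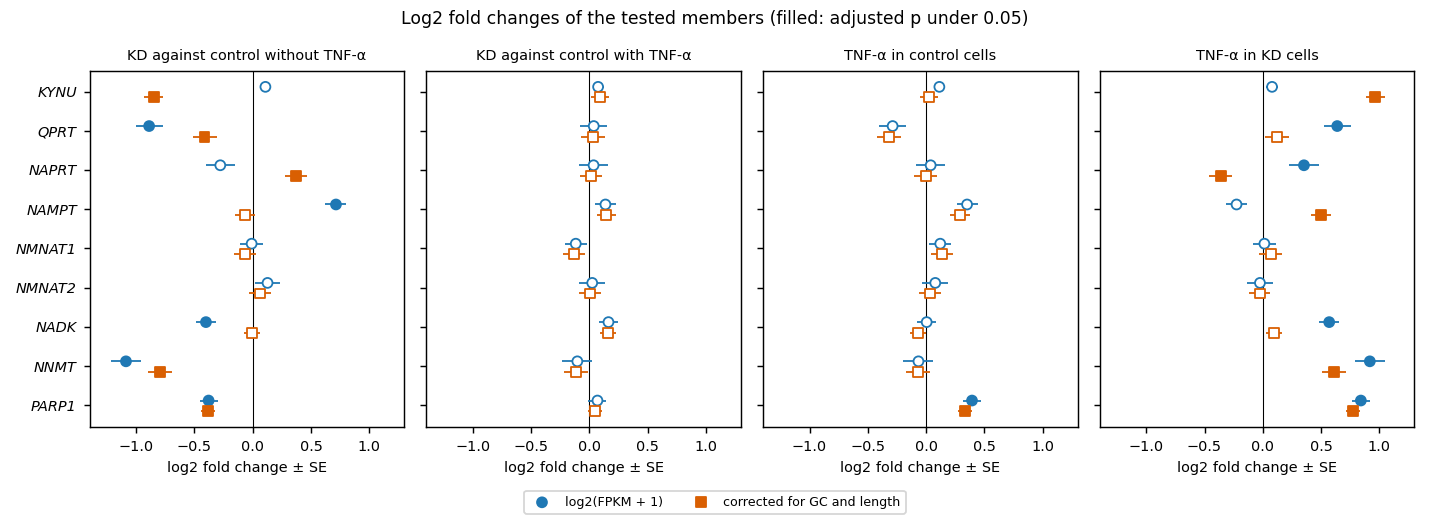
Log2 fold changes with SE of the 9 tested members in 4 comparisons, as deposited (circles, log2(FPKM + 1)) and corrected for GC content and length (squares), filled where the adjusted p was under 0.05. After TNF-α (second panel) all KD effects lie between -0.12 and 0.16 as deposited and no marker is filled; without TNF-α the NAMPT value moves from 0.71 to -0.06. The corrected KYNU values are larger than this scale allows for KYNU and are not to be read.

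The members can be set beside genes of like GC content. Within 1 percentage point of GC content around NAMPT, 563 genes had a median KD effect without TNF-α of 0.62 on the log2(FPKM + 1) scale. Their 10th and 90th percentiles were 0.07 and 1.44, so the 0.71 of NAMPT was close to their median on this scale. In the voom fit, taken up below, NAMPT lay under the median of these genes. NADK, at -0.40, was at the median of -0.41 for its 560 neighbours, among which QPRT, at -0.89, lay nearer the 10th percentile of -1.01. NNMT, at -1.09, lay below the 10th percentile of -0.78 of its 552 neighbours. PARP1, at -0.38, lay between the median of -0.06 and the 10th percentile of -0.65, and NAPRT, at -0.28, above the median of -0.60 and below the 90th percentile of 0.20.

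**Figure D3:**
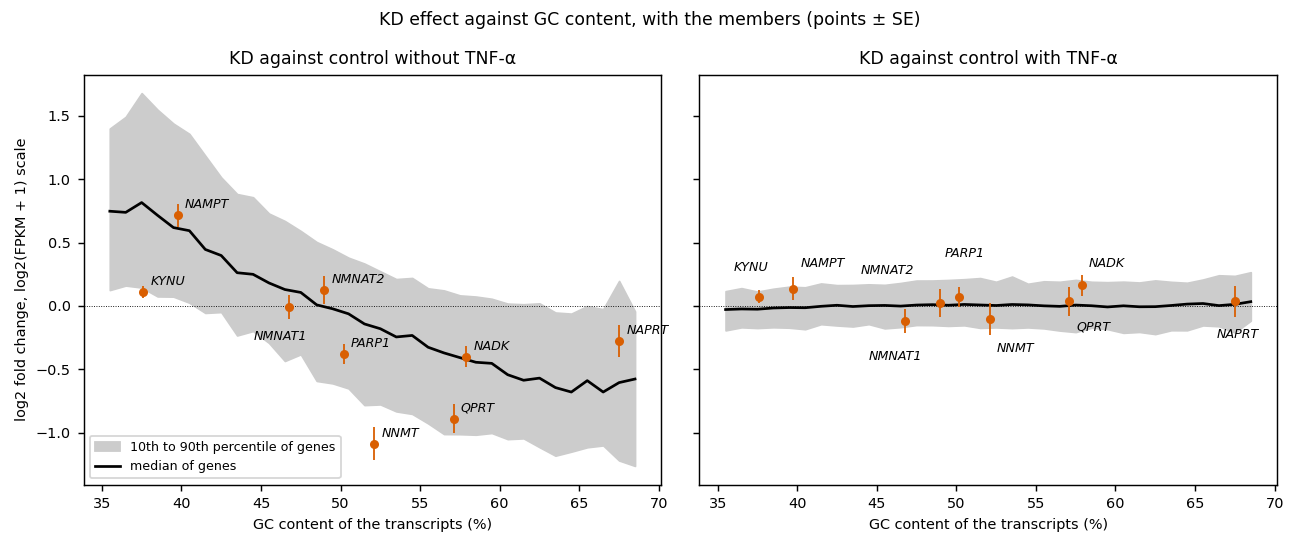
KD effect (log2 fold change on the log2(FPKM + 1) scale) against GC content of the transcripts in percent, without TNF-α (left) and with TNF-α (right), with the median (line) and the 10th to 90th percentile (band) of tested genes in bins of 1 percentage point, and members as points with SE. Without TNF-α the median falls along GC content, NAMPT and NADK sit on it and NNMT lies under the band; with TNF-α the median stays near 0 and all members lie between -0.12 and 0.16.

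After a spline of GC content and length had been taken from each library, 5 of the 9 members were called, while 51.2% of all genes were. Of the 5, 3 had been called in the deposited values, and the others were NAPRT and KYNU, whose corrected value is taken up below. NNMT fell by 0.80 ± 0.10 (limma adjusted p = 0.00104), QPRT fell by 0.41 ± 0.10 (0.0121) and PARP1 fell by 0.39 ± 0.06 (0.00183). NAMPT had -0.06 ± 0.08 (0.545) and NADK -0.01 ± 0.07 (0.926), and NAPRT was higher by 0.37 ± 0.10 (0.0144), opposite in sign to its deposited value. Whether the GC trend of these libraries is a property of the cells or of the libraries was not tested, and it cannot be told apart from the group, since both libraries of the group carry it.

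KYNU needs its own account, as the correction on log2(FPKM + 1) took 0.96 from a gene whose highest value on that scale was 0.25. The voom fit works on the reads and has no such floor. There, as with a pseudocount of 0.1 (0.67, limma adjusted p = 0.0304), KYNU was called, and it was higher in unstimulated KD cells by 1.64 ± 0.43 (limma adjusted p = 0.00590), next to a median of 1.41 and a 90th percentile of 2.50 for 279 genes of like GC content. With the correction in that fit, added after the data were seen, the trend took 1.77 and left -0.14 ± 0.36 (adjusted p = 0.784). NAMPT had 0.81 ± 0.10 in the voom fit (4.6e-05). There 563 genes of like GC content had a median of 1.19 and a 10th percentile of 0.21. After the correction NAMPT had -0.50 ± 0.11 (0.00340), so its direction turned. In that corrected fit 42.8% of all genes were called, 15.1% higher and 27.7% lower, and the median of all genes was -0.11. For both genes the voom call of a higher level in unstimulated KD cells did not hold after the correction.

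**Figure D4:**
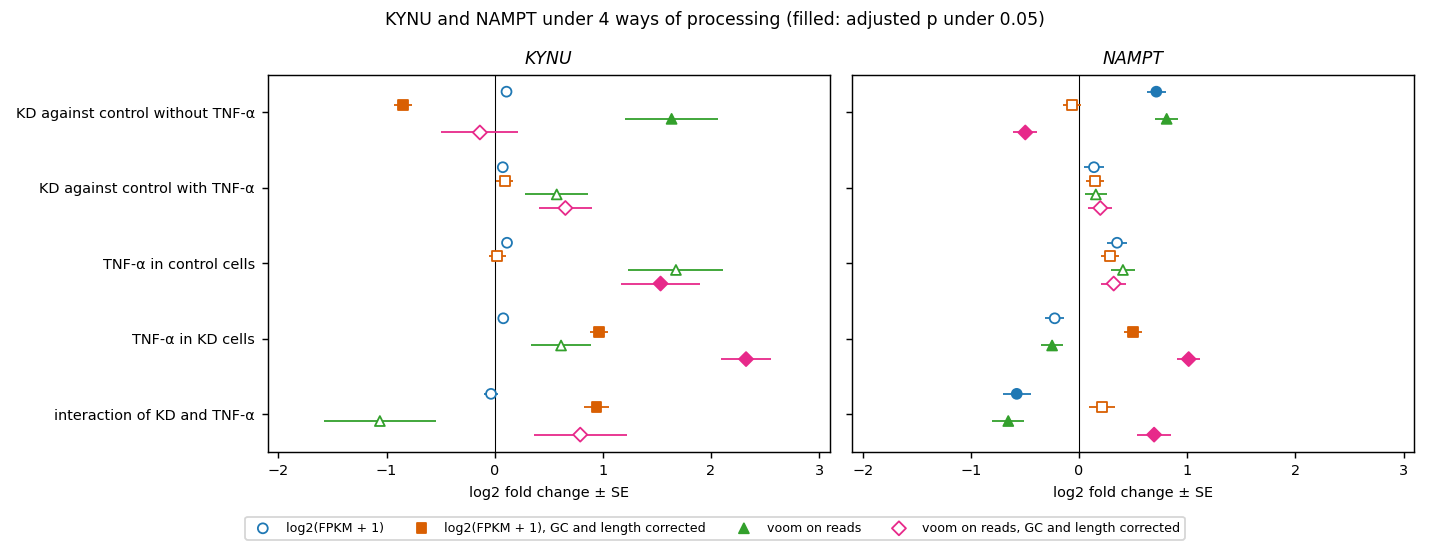
Log2 fold changes with SE of KYNU (left) and NAMPT (right) in the 5 comparisons under 4 ways of processing, filled where the adjusted p was under 0.05. For KD against control with TNF-α and for TNF-α in control cells both voom fits lie close together (0.57 and 0.65, then 1.68 and 1.53 for KYNU); in the 3 comparisons that use unstimulated KD cells they part, from 1.64 to -0.14 for KYNU without TNF-α. The squares of KYNU are larger than its scale allows where unstimulated KD cells enter.

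TNF-α in KD cells was compared with the same unstimulated KD libraries. As deposited, 5 members rose, where 62.5% of all tested genes were called and 31.1% were called higher. NNMT rose by 0.92 ± 0.13 (limma adjusted p = 0.000543), PARP1 by 0.84 ± 0.08 (0.000102), QPRT by 0.64 ± 0.11 (0.00186), NADK by 0.57 ± 0.08 (0.000663) and NAPRT by 0.35 ± 0.13 (0.0396). The NAPRT call was lost without the filter on low reads (adjusted p = 0.0791), with total reads (0.03, adjusted p = 0.825), without replicate 2 of the unstimulated KD group (0.20, adjusted p = 0.253) and without any 1 library of the TNF-α groups (adjusted p between 0.0565 and 0.192). NAMPT had -0.23 ± 0.09 (0.0594) and was called lower in the voom fit (-0.25, 0.0483) and with total reads (-0.57, 0.00127). Total reads moved the median of all genes to -0.19 here, and of all calls 49.8% were higher as deposited, 31.4% with total reads and 60.1% with upper quartiles.

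With the correction, under which 56.2% of all genes were called, PARP1 (0.77 ± 0.06, adjusted p = 0.000116) and NNMT (0.61 ± 0.10, 0.00203) remained higher. QPRT (0.13) and NADK (0.10) no longer passed, NAPRT was lower (-0.36 ± 0.10, 0.0143), and NAMPT was higher (0.50 ± 0.08, 0.00198). KYNU had 0.08 ± 0.05 as deposited (0.183) and 0.61 ± 0.28 in the voom fit (0.0735), with no call. On the log2(FPKM + 1) scale, where the highest KYNU value was 0.25, the correction took -0.89 from KYNU. The corrected KYNU value on that scale is therefore not to be read. In the voom fit with the correction, whose trend took -1.71 from KYNU, KYNU was higher by 2.32 ± 0.23 (1.22e-05) and NAMPT by 1.01 ± 0.11 (1.76e-05). That fit called 49.6% of all genes, 32.4% higher and 17.2% lower, and the median of all genes was 0.12. On the log2(FPKM + 1) scale PARP1 was the only member called higher with TNF-α in both cell types, both before and after the correction.

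The interaction, the KD effect with TNF-α minus that without, was called for 5 of the 9 members, where 46.1% of all genes were called. It was 0.98 ± 0.18 for NNMT, 0.93 ± 0.16 for QPRT, 0.56 ± 0.12 for NADK, 0.45 ± 0.11 for PARP1 and -0.58 ± 0.13 for NAMPT (limma adjusted p between 0.00376 and 0.0128). After the correction, with 34.0% of all genes called, NNMT (0.68), QPRT (0.45) and PARP1 (0.43) passed, NADK (0.17) did not, and NAMPT had 0.21 with no call. KYNU passed as well at 0.94, a value larger than its scale allows and not to be read. The NAMPT call was lost with upper quartiles (-0.36, adjusted p = 0.0602), those of NADK (0.29, 0.0796) and PARP1 (0.15, 0.350) with total reads, and that of PARP1 also without replicate 2 of the unstimulated KD group, replicate 1 of the control group with TNF-α or replicate 1 of the KD group with TNF-α (adjusted p between 0.0534 and 0.0624). Of all calls 51.7% were higher as deposited, 32.9% with total reads and 64.9% with upper quartiles. These comparisons share their libraries with the ones above and give no separate evidence.

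The balance of QPRT, NAPRT and NAMPT was described from their FPKM in each library. NAMPT made up 32.8% and 35.2% of the summed FPKM of NAMPT, NAPRT and QPRT in unstimulated control cells and 55.5% and 62.3% in unstimulated KD cells. With TNF-α it made up 43.6% and 41.8% in control and 44.3% and 45.0% in KD cells. The share of QPRT was 33.4% and 30.6% in unstimulated control cells, 14.3% in each unstimulated KD library, and with TNF-α 25.4% and 22.3% against 22.7% and 23.6%. The TNF-α groups were alike in this balance, and the unstimulated groups were furthest apart. These shares do not depend on library scaling. They rest on annotated exon lengths and were not corrected for GC content, for which NAMPT and QPRT lie on opposite sides of the median.

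The genes most like KYNU, NAMPT and NNMT were found by Pearson's correlation of log2(FPKM + 1) over the 8 libraries, among 11618 tested genes with a mean of at least 1 FPKM. These are descriptions over 8 points that share libraries and groups. KYNU was most like GLIPR1 (r = 0.986), ANTXR2 (0.984), KLF10 (0.977), SP140L (0.976) and ERRFI1 (0.976), and NAMPT most like PXK (0.991), GNL3 (0.988), UAP1 (0.981), NUDCD1 (0.980) and IL1R1 (0.978). The GC content of these 10 genes was between 37.7% and 46.9%, below the median of tested genes. Among the genes most like NNMT were RPLP0 (0.999), PSMB7 (0.998), NDUFS8 (0.998) and RPS18 (0.998), and 1670 genes reached 0.95 with NNMT, against 21 with KYNU and 37 with NAMPT. The pattern of NNMT, low only in unstimulated KD cells, was thus a common one in these libraries.

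The other genes of the pathway were counted in 8 lists of 70 genes, of which 54 were tested. The lists were chosen with earlier results of these data known, so their shares are descriptions and do not test the pathway. After TNF-α, 0 of the 54 differed between KD and control cells, with 4 at an unadjusted p under 0.05. In unstimulated cells 34 of the 54 were called in the KD comparison, or 63.0% beside 60.1% of all genes, and in control cells TNF-α changed 7 of the 54, 6 up and 1 down, or 13.0% beside 4.24%. In KD cells TNF-α changed 37 of the 54, or 68.5% beside 62.5%. After the GC correction 18 of the 54 were called in the unstimulated KD comparison (33.3% beside 51.2% of all genes) and 25 for TNF-α in KD cells (46.3% beside 56.2%).

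Other enzymes of the kynurenine pathway were scarce. Of 9, only KYAT1, KYAT3, AADAT (which transaminate kynurenine) and AFMID (which releases kynurenine from its formyl form) were tested. IDO2, TDO2, KMO, HAAO and ACMSD had between 1 and 32 reads in all. None of the 4 was called for TNF-α in control cells. In unstimulated KD cells KYAT3 rose by 0.56 ± 0.11, AADAT rose by 0.52 ± 0.13 and KYAT1 fell by 0.53 ± 0.16, and after the GC correction (0.18, 0.16 and -0.09) none passed.

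Among the inducers of IDO1, the interferon-γ receptor chains, their kinases and their factors, TNF-α raised 2 of 7 in control cells. Of all genes 3.1% were called higher there. IRF1, the interferon regulatory factor that binds the IDO1 promoter, went from 1.63 and 1.29 to 6.82 and 7.43 FPKM (log2 fold change 1.73 ± 0.13, limma adjusted p = 0.000270). IFNGR2 rose by 0.91 ± 0.09 (0.00133). In KD cells IRF1 rose by 1.85 ± 0.13 and IFNGR2 by 1.29 ± 0.09, and both were called after the GC correction as well (1.58 and 0.96). In unstimulated KD cells JAK2 (1.01 ± 0.11) and JAK1 (0.52 ± 0.15) were higher, and they were called after the GC correction too (0.36 and 0.45). IDO1 itself had 1 read in all 8 libraries, in a control library with TNF-α, so its absence was not particular to the KD groups.

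Of 14 tested PARP family members other than PARP1, TNF-α raised 3 in control cells and lowered none, beside 3.1% and 1.14% of all genes. PARP14 went from 1.75 and 2.31 to 4.89 and 4.80 FPKM (0.95 ± 0.12, limma adjusted p = 0.00550), and PARP8 (0.88 ± 0.10, 0.00337) and PARP12 (0.44 ± 0.08, 0.0295) rose as well. These are mono-ADP-ribosyl transferases, unlike PARP1, which makes chains. In unstimulated KD cells 7 of the 14 were called higher and 2 lower, beside 29.8% and 30.2% of all genes. The largest values were those of PARP14 (1.54 ± 0.12), TNKS2 (1.34 ± 0.17) and PARP10 (-0.83 ± 0.15), and these 3 were called in the same direction after the GC correction (0.94, 0.85 and -0.34).

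None of the 7 sirtuins was called for TNF-α in control cells. In unstimulated KD cells SIRT1 rose by 0.98 ± 0.12 and SIRT2 fell by 0.84 ± 0.09 and SIRT6 fell by 0.75 ± 0.14, and with the GC correction SIRT1 (0.33) and SIRT2 (-0.46) were called and SIRT6 (-0.09) was not. Of 6 other genes of NAD synthesis, 0 were called for TNF-α in control cells. PNP, which frees nicotinamide from its riboside, stood at 17.8 and 14.4 FPKM in unstimulated control and 10.5 and 10.9 in unstimulated KD cells, and with TNF-α at 23.8 and 21.4 in control cells against 28.6 and 28.4 in KD cells. It fell in unstimulated KD cells by 0.54 ± 0.11 and rose with TNF-α in KD cells by 1.33 ± 0.11, and both were called after the GC correction (-0.46 and 1.25). The mitochondrial kinase NADK2, 39.5% G and C, went the other way from NADK, with 0.84 ± 0.11 in unstimulated KD cells and 0.23 after the GC correction, which missed the threshold. ENPP1 had 0.50 ± 0.11 there and -0.14 after the correction. It had at most 1.74 FPKM in any library, where the log2(FPKM + 1) scale compresses changes, so its corrected sign is uncertain.

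Of 7 tested genes of NAD turnover none was called for TNF-α in control cells, and in unstimulated KD cells 6 were, beside 60.1% of all genes. The largest values were those of ADPRHL2 (-1.21 ± 0.17), MACROD1 (-1.03 ± 0.20) and PARG (0.87 ± 0.18), enzymes that remove ADP-ribose, and after the GC correction ADPRHL2 (-0.63) and PARG (0.69) were called and MACROD1 (-0.35) was not. CD38, a NAD hydrolase of leukocytes, had 2 reads in all. Of 6 transporters, SLC12A8 fell with TNF-α in control cells by 0.55 ± 0.10 (limma adjusted p = 0.0295), where 1.14% of all genes were called lower. SLC3A2 and SLC7A5, the chains of the exchanger that carries tryptophan and kynurenine, fell in unstimulated KD cells by 0.91 ± 0.12 and 0.69 ± 0.10, and after the GC correction SLC3A2 (-0.58) was called and SLC7A5 (-0.18) was not. SLC36A4, an amino acid transporter, was higher by 0.42 ± 0.09 and after the correction lower (-0.52). It had at most 1.66 FPKM in any library, where the log2(FPKM + 1) scale compresses changes, so its corrected sign is uncertain. Of the genes that sense kynurenine through the receptor AHR, AHR had 16 reads in all and was not tested. Its target CYP1A1 rose with TNF-α in control cells by 0.65 ± 0.10 (0.0133) and in KD cells by 0.72 ± 0.10 (0.36 after the GC correction, called), with at most 1.06 FPKM in any library.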

How the data were processed

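RNA-seq of 8 libraries (4 groups of 2) was analysed. The authors deposited FPKM values for 58735 genes in each library. Per the labels, their notes name CASAVA 1.8, fastp, HISAT2 2.0.5, featureCounts 1.5.0-p3 and DESeq2 1.20.0 on GRCh38, and the study's methods name edgeR. DESeq2 and edgeR were not run here. The main test used the deposited FPKM, which are not counts. Gene models matched GENCODE 29. Each value was a whole multiple of 1 read within 0.02 for 100% of values, and the recovered reads served as depth and for the voom fits.

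From the deposited FPKM, log2(FPKM + 1) was tested with limma 3.58.1 in R 4.3.3, with 1 mean per group over all 8 libraries, 4 residual degrees of freedom, a variance trend and Benjamini-Hochberg adjustment, two-sided. Fold changes on the log2(FPKM + 1) scale understate changes of low genes. The filter kept 16528 genes that had, at median depth, 10 reads or more in 2 libraries and a total of 15 or more. GC content was pooled over all annotated transcripts of a gene, and the correction removed splines with 5 degrees of freedom on GC content and length from each library. Start regions were RefSeq windows of GRCh38.p14. Scripts were tested on simulated data. Alternatives were a pseudocount of 0.1, no filter, a mean of at least 1 CPM (recovered reads scaled to library size), upper-quartile and total-read scaling, the 4 libraries compared, the GC correction, voom, a replicate block and leaving out each library. Added after the data were seen were voom with the GC correction and a fit of 6 libraries without the unstimulated KD group.

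The members and lists were chosen with earlier results of these data known. Named genes were the 10 members, WSB2, the 3 genes of each pathway list with the largest absolute log2 fold change among those called in a comparison, untested genes of the lists, overlapping genes and copies, and the 5 genes most like KYNU, NAMPT and NNMT. Of the genes this rule names, 2 are not reported here. Intervals and limits on counts cover counting error only. Python 3.11.15 with numpy 2.4.6, pandas 2.3.3, scipy 1.17.1 and matplotlib 3.10.9 was used. With 2 libraries per group, outliers could not be tested.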

Additional observations from a re-analysis of the deposited data

Results flagged for a closer look

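The KD effect differed between stimulated and unstimulated cells for 5 members, by limma's test of the interaction in the deposited values. The difference, the effect with TNF-α minus that without, was 0.98 for NNMT, 0.93 for QPRT, 0.56 for NADK and 0.45 for PARP1 on the log2(FPKM + 1) scale, and -0.58 for NAMPT. All 5 rest on both unstimulated KD libraries, whose reads had a GC content of 50.1% and 50.6% against 53.2% to 53.8% in the others, and 46.1% of all tested genes were called for the interaction. After the correction for GC content and length the values were 0.68, 0.45, 0.17 and 0.43, and 0.21 for NAMPT.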

How the results depend on the processing

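In the comparison of KD and control cells after TNF-α, 0 members were called under every alternative run, while the genes called over all moved from 19 to 7 without the filter, 39 with only the 4 libraries compared, 12 with upper quartiles, 64 with the GC correction, 52 with voom, 147 with voom and the GC correction, 7 in the 6 libraries, and 0 to 98 without each library in turn (97 or 98 without either unstimulated control library, 0 without replicate 2 of the KD group with TNF-α). For TNF-α in control cells 701 genes were called. This became 368 without the filter, 238 with 4 libraries, 443 with 6, 1162 with voom and the GC correction, and 229 to 2130 without each library, the highest without replicate 2 of the unstimulated control group. PARP1, the 1 member called there, was not called (0 members) without the filter, with 4 or 6 libraries, with upper quartiles or total reads, or without either replicate of the unstimulated KD group or of either TNF-α group (0 to 1 over all libraries left out), and with voom and the GC correction KYNU joined it (2 members). For the interaction, total reads left 3 of 5 members, and voom with the GC correction 4619 of 7614 genes.

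Under other scalings, directions turned only for values that were not called as deposited. With the GC corrections they turned also for called values. Among these were the KD effects without TNF-α of NAMPT (0.71 as deposited) and NADK (-0.40). The TNF-α effect in KD cells of NAPRT (0.35) and the interaction of NAMPT (-0.58) turned as well. With the GC correction, and after it with the correction in voom, the KD effect without TNF-α was -0.065 and -0.50 for NAMPT, -0.85 and -0.14 for KYNU, and 0.37 and 0.50 for NAPRT, and in voom 0.035 for NADK. The TNF-α effect in KD cells was 0.50 and 1.01 for NAMPT, and -0.36 and -0.46 for NAPRT, and in voom 0.096 for NMNAT2. The interaction was 0.21 and 0.69 for NAMPT, 0.94 and 0.79 for KYNU, and -0.36 and -0.46 for NAPRT, and in voom 0.028 for NMNAT1. The TNF-α effect in control cells was -0.069 and -0.072 for NADK, and -0.0040 for NAPRT without voom. The correction itself takes the GC trend out of these values, and the cause of that trend was not tested. Total reads gave NMNAT1 0.14 for KD without TNF-α and -0.19 for TNF-α in KD cells, and gave NAPRT -0.027 and NADK -0.065 for TNF-α in control cells. Upper quartiles gave NADK -0.029 in control cells, NMNAT2 0.065 for TNF-α in KD cells and NMNAT1 0.017 for the interaction.

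Leaving out 1 library in turn changed the sign of values that were not called with all 8 libraries. The KD effect with TNF-α ranged from -0.033 to 0.10 for NAPRT, -0.0080 to 0.056 for NMNAT2 and -0.064 to 0.14 for QPRT, and that without TNF-α from -0.077 to 0.058 for NMNAT1 and -0.027 to 0.28 for NMNAT2. The TNF-α effect in control cells ranged from -0.024 to 0.10 for NAPRT, -0.076 to 0.23 for NMNAT2, -0.27 to 0.14 for NNMT and -0.030 to 0.039 for NADK, and that in KD cells from -0.036 to 0.062 for NMNAT1 and -0.082 to 0.033 for NMNAT2. The interaction of NMNAT2 ranged from -0.26 to 0.051. Replicate numbers were not treated as pairs in the main fit. Deviations of same-numbered libraries correlated between -0.19 and 0.35, the highest between the unstimulated groups. These values cannot show whether samples were paired, and the labels do not say. With a replicate block 10 genes and 0 members were called for KD with TNF-α and 0 members for TNF-α in control cells, and 5 members in each of the other comparisons. With 2 libraries a group and at most 106 KYNU reads in any group, smaller changes were not detectable.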
